A study of Mus musculus with 8 samples.

Results

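Matrix metalloproteinases (MMPs) and tissue inhibitors of metalloproteinases (TIMPs) were followed in cultured hepatocytes, the cells that make up most of the liver, as a set of 10 genes taken by name from the 24411 genes of the count table. The set held 7 Mmp genes (Mmp2, Mmp8, Mmp9, Mmp12, Mmp13, Mmp14 and Mmp15) and 3 Timp genes (Timp1, Timp2 and Timp3). RNA sequencing had been done on 4 libraries of hepatocytes from wild-type mice and 4 libraries from mice in which Taf2 was conditionally knocked out in hepatocytes, all harvested 2 days after plating. Taf2 encodes a subunit of TFIID, the complex that recognises core promoters for RNA polymerase II. Strain, age, the driver of the deletion and the number of animals behind the libraries are not stated in the sources used, so p-values measure the spread between these libraries, which may be technical.

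MMPs are zinc-dependent endopeptidases that cut collagens, fibronectin, laminins and other proteins of the extracellular matrix. Most are secreted as inactive proenzymes and are activated by removal of a propeptide, while the membrane-type members are activated inside the cell by furin-like convertases and work at the cell surface. TIMPs bind active MMPs and block them. In the liver most MMPs and TIMPs are known from macrophages, stellate cells and neutrophils, and their balance is studied in the turnover of scar matrix.

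Library totals ran from 18947059 to 23933589 estimated counts. Taf2 stood between 42.2 and 46.4 CPM (counts scaled to library size, with sizes adjusted by edgeR's TMM method) in the wild-type libraries and between 12.7 and 15.7 CPM in the knockout libraries, so every library matched its label. The hepatocyte markers, led by Alb (serum albumin), were all tested. In the knockout 10 of 16 were higher and 4 lower, beside 30.2% and 31.2% of all genes tested. The 4 lower genes were Apoa1, Apob, Cps1 and Hpx. The summed level of all 16 markers was 77400 to 82900 CPM per wild-type library and 91500 to 99400 CPM per knockout library. Alb, by far the largest part of this sum, rose from 38000 ± 1780 to 55200 ± 3030 CPM.

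Promoter sequences of 8 of the 10 genes were matched by symbol in RefSeq's GRCm38.p6 table. Mmp2 and Mmp9 were not matched. A total of 4 stretches of 120 bases that end just before a transcription start are shown, because they hold the motifs searched for and come from the member that rose most (Mmp12), a member with no counts (Mmp13), the inhibitor with the largest fall (Timp1) and the most abundant member (Mmp14). Capitals mark the AP-1 motif TGANTCA in Mmp12 and Mmp13, the ETS motif CAGGAA in Timp1, and CCAAT, read from the opposite strand as ATTGG, in Mmp14. All are on the plus strand, 5′ to 3′. Mmp12 is chr9:7347254-7347373, Mmp13 is chr9:7272394-7272513, Timp1 is chrX:20870046-20870165 and Mmp14 is chr14:54431478-54431597.
Mmp12: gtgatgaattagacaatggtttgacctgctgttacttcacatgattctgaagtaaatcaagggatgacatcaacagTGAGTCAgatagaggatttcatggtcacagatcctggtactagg
Mmp13: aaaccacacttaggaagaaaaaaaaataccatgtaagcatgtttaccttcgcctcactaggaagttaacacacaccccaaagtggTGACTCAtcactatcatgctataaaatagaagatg
Timp1: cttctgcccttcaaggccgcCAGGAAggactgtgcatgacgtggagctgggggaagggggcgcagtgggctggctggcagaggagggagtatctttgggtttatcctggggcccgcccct
Mmp14: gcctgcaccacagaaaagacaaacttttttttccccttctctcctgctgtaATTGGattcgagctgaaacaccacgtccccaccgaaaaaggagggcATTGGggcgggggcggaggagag

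The search covered 300 bases around each start (250 before and 50 after) on both strands. AP-1 is the dimer of FOS and JUN proteins. Its motif stood 44 bases before the start of Mmp12 that is shown and 35 bases before that of Mmp13, and in no other window of the 8 genes, including the window at a second, upstream start of Mmp12. Of 32817 promoter windows 7.81% held it. The TATA box letters TATAAA were in the windows of Mmp8, Mmp12 and Mmp13 and in 13.6% of all windows. They stood at base -3 from the start in Mmp8, on the opposite strand, at base 5 in Mmp12 and at base -16 in Mmp13. CAGGAA was found 4 times in the Timp1 window, once each in those of Mmp15 and Timp3, and in 30.6% of all windows. CCAAT was in the windows of Mmp8, Mmp14, Timp1 and Timp2 and in 37.4% of all windows. Motifs so matched are descriptions of the letters, and no binding was measured.

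The comparison of genotypes asked which of these transcripts differed when Taf2 was deleted. The 2 membrane-type members Mmp14 and Mmp15 fell, as did the inhibitors Timp1 and Timp3, while the secreted proteases Mmp12 and Mmp8 rose from a few counts per library. Timp2 did not pass the test. Of the 10 genes, 7 passed the filter on low counts, and of these 2 were called higher and 4 lower (edgeR's quasi-likelihood test, Benjamini-Hochberg adjusted p under 0.05). The background is high, since 61.4% of the 12122 genes tested were called, 30.2% higher and 31.2% lower. Mmp8 and Mmp12 passed the filter only through the knockout libraries, where they are high, so the count of calls among tested members is given as a description. Mmp2, Mmp9 and Mmp13 were too low to be tested.

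**Figure D1:**
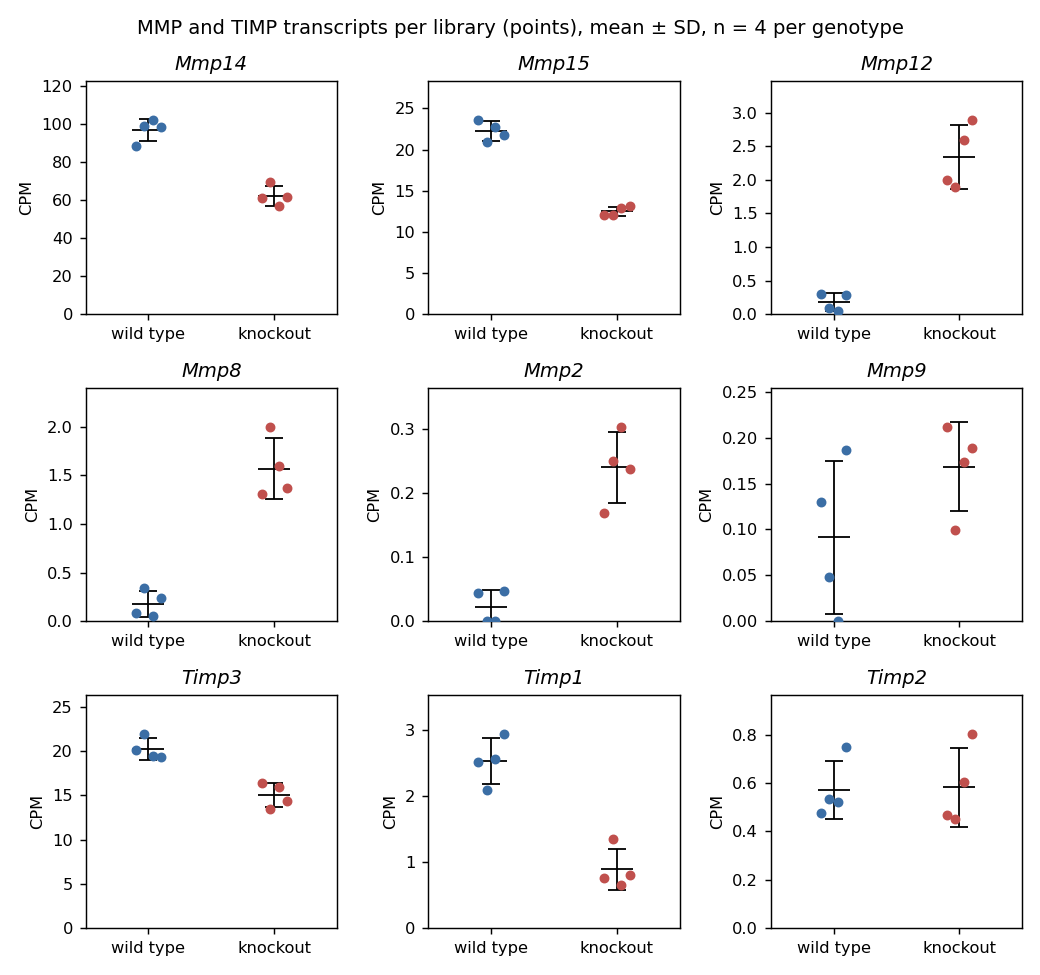
Level of 9 genes in CPM (y axis, from 0) in each of the 4 wild-type (blue) and 4 knockout (red) libraries, with the mean and SD as black bars. The genotypes are apart for Mmp14, Mmp15, Mmp12, Mmp8, Mmp2, Timp3 and Timp1 and overlap for Mmp9 and Timp2; Mmp13, at 0 counts, is not drawn.

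Mmp14 encodes the membrane-type protease MT1-MMP, which cuts fibrillar collagen at the cell surface and activates proMMP2. It lies on chromosome 14 from 54431612 to 54445364 (build mm10). Wild-type replicates 1 to 4 held 88.2, 98.6, 102 and 98.2 CPM and knockout replicates 1 to 4 held 61.2, 69.3, 56.7 and 61.8 CPM. Every knockout library was below every wild-type library. The mean ± SD of the 4 libraries dropped from 96.7 ± 5.96 in wild-type cells to 62.2 ± 5.23 CPM. The log2 fold change was -0.64 (SE 0.0525) with an edgeR adjusted p = 1.98e-09, which left 64.3% of the wild-type level.

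Mmp15 encodes MT2-MMP, another membrane-type protease, and lies on chromosome 8 from 95352268 to 95375080. Wild-type libraries held 23.6, 20.9, 22.8 and 21.8 CPM and knockout libraries 12.0, 12.1, 12.9 and 13.1 CPM, again without overlap. Its mean fell from 22.3 ± 1.15 to 12.5 ± 0.566 CPM (log2 fold change -0.83, SE 0.0635, edgeR adjusted p = 6.29e-10), or to 56.2% of wild type. Genotypes that did not overlap were common, at 27.8% of tested genes lower and 26.9% higher in the knockout.

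Mmp12 encodes macrophage elastase, which degrades elastin. It is on chromosome 9 from 7344381 to 7369499, where its last bases overlap Mmp1b on the opposite strand, and Mmp1b had no counts in any library. The wild-type libraries held 7, 2, 1 and 6 counts of Mmp12 and the knockout libraries 47, 38, 60 and 61. All knockout libraries were far above all wild-type ones. The mean rose from 0.184 ± 0.127 to 2.34 ± 0.478 CPM (log2 fold change 3.58, SE 0.317, edgeR adjusted p = 5.77e-09).

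Mmp8, the neutrophil collagenase gene, is on chromosome 9 from 7558456 to 7568485. Its counts were 2, 7, 1 and 5 in the wild-type libraries and 31, 40, 37 and 29 in the knockout libraries. The genotypes did not overlap. The mean rose from 0.178 ± 0.134 to 1.57 ± 0.311 CPM (log2 fold change 3.09, SE 0.347, edgeR adjusted p = 1.84e-07). Called rises of 3 or more on a log2 scale made up 0.833% of all genes tested, and Mmp12 and Mmp8 were among them. As these 2 genes passed the low-count filter only through the knockout libraries, where they are high, this share is a description. Both rest on totals of 16 and 15 wild-type counts, and over leaving out each library the log2 fold change was between 3.31 and 3.94 for Mmp12 and between 2.82 and 3.57 for Mmp8.

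The 2 gelatinase genes were near the limit of detection. Mmp2 (chromosome 8, 92827291 to 92853420) encodes gelatinase A, a product mainly of stellate cells and fibroblasts. It had 1, 0, 0 and 1 counts in the wild-type libraries and 4, 5, 7 and 5 in the knockout libraries, so each knockout library was above each wild-type one. The totals of 2 and 21 counts gave a ratio of 10.1 with an exact 95% interval from 2.46 to 88.4 that covers counting error only. Permuting the genotypes over the CPM values (exact test, two-sided) gave p = 0.029, the smallest that 4 against 4 libraries allow. Fitted without the low-count filter, Mmp2 had a log2 fold change of 3.04 (SE 0.822, edgeR adjusted p = 0.0016).

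Mmp9 (chromosome 2, 164940780 to 164955850) encodes gelatinase B, which neutrophils and macrophages release. Its counts were 3, 1, 0 and 4 in the wild type and 5, 2, 4 and 4 in the knockout, and the genotypes overlapped. The ratio of the totals was 1.79 (exact 95% interval 0.714 to 4.89, counting error only), and the exact two-sided permutation test gave p = 0.2. A difference was not detectable at this depth. Mmp13 (chromosome 9, 7272514 to 7283331), the interstitial collagenase gene of rodents, had 0 counts in all 8 libraries, which allows up to 0.127 to 0.157 CPM per library at 3 counts.

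**Figure D2:**
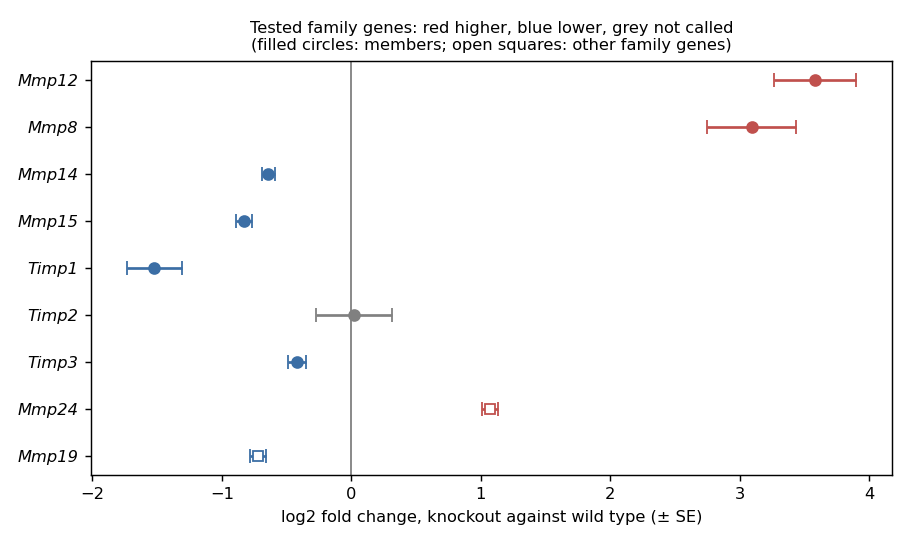
Log2 fold change of knockout against wild type (x axis) with its SE as horizontal bars for the 7 tested members (filled circles) and 2 other tested genes of the family (open squares). Mmp12 and Mmp8 stand above 3, the 4 members that fell lie between -1.52 and -0.42, and Timp2 lies at 0.02.

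Among the inhibitors Timp1 fell most. Timp1 encodes a secreted glycoprotein that inhibits most soluble MMPs, and it lies on the X chromosome from 20870166 to 20874735. Wild-type libraries held 58, 43, 49 and 63 counts (2.52, 2.09, 2.56 and 2.95 CPM) and knockout libraries 18, 27, 15 and 17 counts (0.762, 1.35, 0.648 and 0.805 CPM). The highest knockout library, replicate 2, was still below the lowest wild-type library. The mean fell from 2.53 ± 0.352 to 0.891 ± 0.312 CPM (log2 fold change -1.52, SE 0.209, edgeR adjusted p = 2.82e-06), or to 34.8% of wild type. Timp1 lies inside the span of Syn1, a synapsin gene on the opposite strand, which was at 0.538 ± 0.125 and 0.379 ± 0.121 CPM (edgeR adjusted p = 0.196).

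Timp3 encodes the inhibitor that is bound to the extracellular matrix and that also blocks the shedding proteases of the ADAM family. It lies on chromosome 10 from 86300372 to 86349506. Wild-type libraries held 20.1, 22.0, 19.5 and 19.3 CPM and knockout libraries 16.4, 13.5, 16.0 and 14.4 CPM, without overlap. The mean fell from 20.2 ± 1.26 to 15.1 ± 1.36 CPM (log2 fold change -0.42, SE 0.0707, edgeR adjusted p = 3.41e-05). Syn3, whose span on the opposite strand contains Timp3, fell from 3.42 ± 0.674 to 2.07 ± 0.144 CPM (edgeR adjusted p = 0.000465). The sources used do not say whether counting used strand, so reads of the opposite-strand pairs cannot be told apart where their exons overlap.

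Timp2, on chromosome 11 from 118301069 to 118355740, encodes the inhibitor that also takes part in the activation of proMMP2 by MT1-MMP. It had 11, 11, 10 and 16 counts in the wild type and 11, 9, 14 and 17 in the knockout. The ranges overlapped almost entirely, at 0.571 ± 0.122 and 0.581 ± 0.165 CPM (log2 fold change 0.02, SE 0.296, edgeR adjusted p = 0.951). At 9 to 17 counts per library, a fall as small as that of Timp3 would not be detectable at this depth.

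The members Mmp8, Mmp12 and Mmp13 belong to a cluster of 10 Mmp genes that spans 427 kb of chromosome 9, from 7272514 to 7699585. In the other 7 genes of the cluster counts were low or absent. Mmp27, which starts 2910 bases beyond the end of Mmp8, had 7, 2, 1 and 1 counts in the wild-type libraries and 18, 15, 18 and 9 in the knockout libraries. It failed the low-count filter, and the ratio of its totals was 5.22 (exact 95% interval 2.72 to 11.0, counting error only). The genotypes did not overlap, and the exact two-sided permutation test gave p = 0.029. Mmp27 was singled out after its values were seen. Mmp1a, Mmp1b and Mmp20 had 0 counts in all libraries, Mmp3 had 0 counts in the wild type and 6 in the knockout, Mmp10 had 2 and 1, and Mmp7 had 3 and 0.

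**Figure D3:**
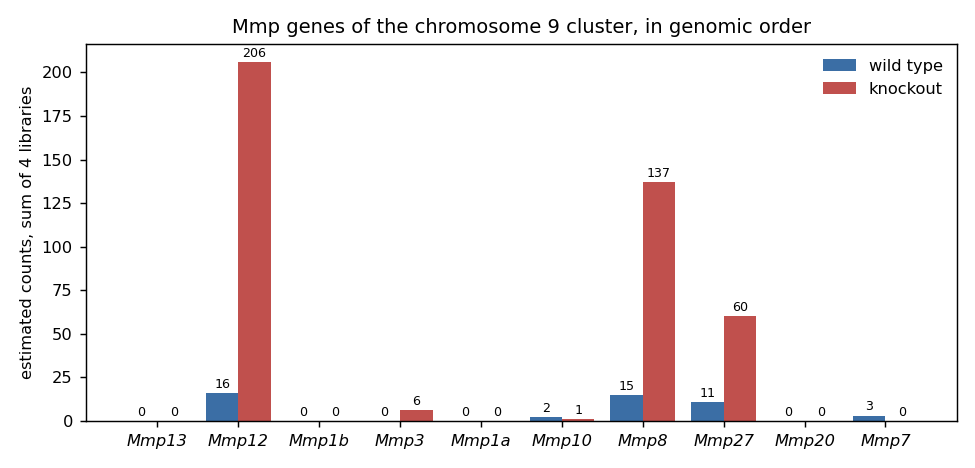
Estimated counts summed over 4 libraries per genotype (y axis; blue wild type, red knockout, values above the bars) for the Mmp genes of the chromosome 9 cluster in genomic order. Mmp12 (16 and 206), Mmp8 (15 and 137) and Mmp27 (11 and 60) hold nearly all counts of the cluster.

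Levels of different genes were compared as CPM per kb of merged exon length. In the wild type Mmp14 was the most abundant member at 16.2 ± 1.00 CPM per kb, followed by Mmp15 at 4.13 ± 0.214, Timp1 at 2.85 ± 0.397 and Timp3 at 2.48 ± 0.154. Timp1 and Timp3 did not differ beyond their spread. Timp2 followed at 0.147 ± 0.0312 CPM per kb and Mmp8, at 0.0736 ± 0.0551, and the remaining members were lower. In the knockout the order of the leading members was Mmp14 at 10.4 ± 0.878, Mmp15 at 2.32 ± 0.105, Timp3 at 1.85 ± 0.166, Timp1 at 1.00 ± 0.352, Mmp8 at 0.648 ± 0.128 and Mmp12 at 0.324 ± 0.0660 CPM per kb. With the length of the longest listed transcript instead, Mmp14 was at 37.3 CPM per kb and Timp3 at 4.28 CPM per kb in the wild type, so Timp3 then stood above Timp1 and level with Mmp15, which was at 4.34 CPM per kb. By that length the knockout order changed too, with Timp3 at 3.19 ± 0.287 above Mmp15 at 2.44 ± 0.110 CPM per kb, and Mmp12 at 0.649 ± 0.132 level with Mmp8 at 0.648 ± 0.128 CPM per kb.

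Mmp14 made up 79.2% ± 1.69 (SD, n = 4) of the summed level per kb of the 7 Mmp members in the wild type and 75.3% ± 1.98 in the knockout. The ranges of this share, 76.7% to 80.3% and 72.8% to 77.2%, overlapped. Mmp12 and Mmp8 together took 0.484% ± 0.275 and 7.01% ± 0.712. Of the summed level per kb of the 3 inhibitors, the share of Timp1 was 51.8% ± 4.72 in the wild type and 33.0% ± 9.10 in the knockout, and that of Timp3 was 45.5% ± 4.92 and 62.0% ± 8.42. The ranges of both shares overlapped between genotypes. By the longest listed transcript Timp3 had the larger share in both genotypes, at 58.7% ± 4.76 and 73.3% ± 7.11, against 39.2% ± 4.54 and 23.1% ± 7.48 for Timp1. Mmp14 then took 89.2% ± 1.03 and 86.0% ± 1.41 of the Mmp sum, and Mmp12 and Mmp8 together 0.300% ± 0.152 and 4.67% ± 0.566. By that length the ranges of the Mmp14 share, 87.7% to 89.9% and 84.4% to 87.5%, did not overlap. The sum over Mmp members divided by the sum over Timp members was 3.75 ± 0.242 (range 3.53 to 3.97) in the wild type and 4.62 ± 0.142 (range 4.49 to 4.82) in the knockout. By the longest listed transcript it was 5.73 ± 0.339 and 6.39 ± 0.384, and the ranges, 5.35 to 6.11 and 6.04 to 6.77, then overlapped. These are ratios of transcript levels, and no protein or activity was measured. The Mmp sums leave out Mmp19 and Mmp24, which are not members. By merged exon length Mmp19 was at 8.37 CPM per kb in the wild type and 5.07 in the knockout, and Mmp24 at 2.58 and 5.39.

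**Figure D4:**
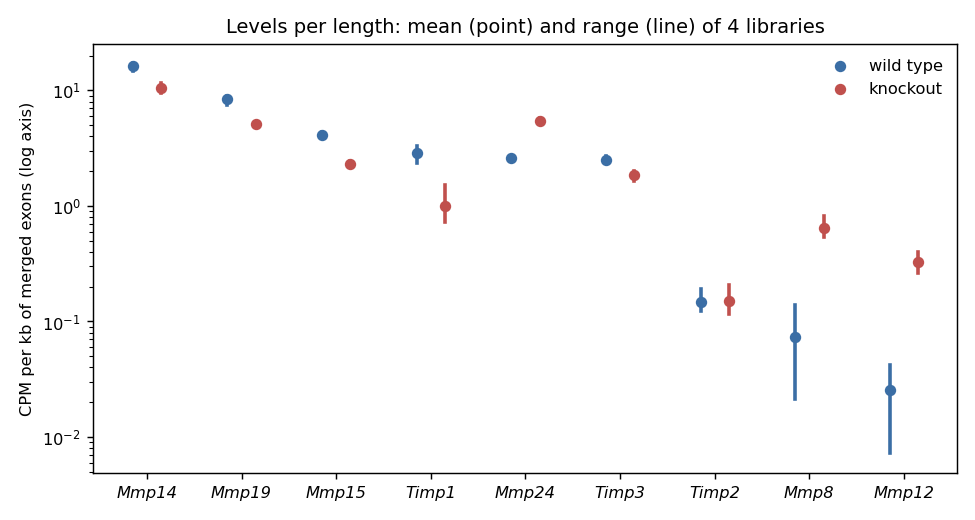
CPM per kb of merged exons (y axis, log scale) for 9 tested genes of the family, with the mean as a point and the range of 4 libraries as a line, in wild type (blue) and knockout (red). Mmp14 leads in both genotypes at 16.2 and 10.4, and Mmp8 and Mmp12 have the lowest wild-type levels of the genes drawn.

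Outside the 10 members, the table listed 17 further Mmp and Timp genes, of which 2 were tested. Mmp19, a secreted protease gene of many tissues, fell from 29.6 ± 2.24 to 17.9 ± 0.755 CPM (log2 fold change -0.72, SE 0.0622, edgeR adjusted p = 3.81e-09). Mmp24, which encodes the membrane-type protease MT5-MMP, rose from 12.1 ± 0.386 to 25.3 ± 1.41 CPM (log2 fold change 1.07, SE 0.0624, edgeR adjusted p = 9.88e-12). Of the tested membrane-type genes, 2 thus fell and 1 rose. Mmp24 overlaps BC029722 on the opposite strand, which was at 51.1 ± 1.66 and 40.4 ± 2.98 CPM (edgeR adjusted p = 5.97e-06). Mmp19 overlaps Tmem198b on the opposite strand, at 2.12 ± 0.334 and 1.74 ± 0.200 CPM (edgeR adjusted p = 0.161). As for Timp1 and Timp3, reads of these pairs cannot be told apart where their exons overlap, unless counting used strand. Mmp16 was among the 4 of these 17 genes with 0 counts in all libraries.

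Marker genes of other liver cells moved in the same libraries, though not all upwards. Markers of cholangiocytes, the bile duct cells, were higher in 3 of 6 tested cases and lower in 3 (median log2 fold change -0.03). Of 15 tested macrophage markers 14 were higher and 0 lower, beside 30.2% and 31.2% of all genes tested. Their median log2 fold change was 1.91. The 18 listed genes summed to 186 to 214 CPM per wild-type library and 369 to 396 CPM per knockout library. Of these sums Cd68, Cd14 and Mpeg1 held on average 84.1, 64.8 and 32.5 CPM in the wild type. In the knockout they held 172, 87.9 and 34.7 CPM. No marker was at 0 in all 8 libraries. Ccr2, a monocyte receptor gene, had 1 count in the wild type and 0 in the knockout. C1qb, a complement subunit gene of macrophages, rose from 2.14 ± 0.226 to 14.0 ± 0.675 CPM. Of 17 tested stellate cell and fibroblast markers 14 were higher and 2, Acta2 and Tagln, lower, with a median log2 fold change of 2.18. The sum of the 20 listed genes was 227 to 246 CPM per wild-type library and 220 to 235 CPM per knockout library. Tagln (transgelin), which contributes most to this sum in the wild type, fell from 139 ± 9.57 to 27.6 ± 1.01 CPM. Of 16 tested endothelial markers 15 were higher and 0 lower, with sums of 87.1 to 97.4 and 216 to 223 CPM. The part of these cells in the rises of Mmp12, Mmp8 and Mmp2 was not tested, and more cells of a type cannot be told apart from more RNA per cell.

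Neutrophil markers other than Lcn2 were at or near 0, and none of them was tested. Elane, Mpo, Ltf, Camp and Fcnb, which encode granule proteins, had 0 counts in all 8 libraries. In total Csf3r had 7 counts in the wild type and 30 in the knockout, and S100a8 had 1 and 5. Prtn3 had 15 and 15 and Ngp had 1 and 0, and the totals of S100a9, Cxcr2 and Retnlg were equal between genotypes. The 12 listed markers other than Lcn2 summed to 0.157 to 0.609 CPM per wild-type library and 0.400 to 0.762 CPM per knockout library, ranges that overlap. Lcn2, which also encodes an acute phase protein of hepatocytes and whose product binds MMP9, fell from 3020 ± 63.8 to 2550 ± 80.9 CPM (edgeR adjusted p = 3.94e-06).

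Genes that activate MMP proenzymes moved both ways, with 3 of 11 higher and 6 lower, beside 30.2% and 31.2% of all genes tested. Their median log2 fold change was -0.22, beside -0.003 over all genes tested. Furin, whose product activates MT1-MMP inside the cell, rose from 290.0 ± 11.4 to 360.0 ± 12.4 CPM (adjusted p = 4.36e-07 in edgeR), and Plau, the urokinase gene, from 0.954 ± 0.303 to 4.25 ± 0.723 CPM. Plaur, the urokinase receptor gene, fell from 154 ± 4.44 to 82.8 ± 0.690 CPM and Hpn, which encodes the membrane protease hepsin, from 201 ± 3.25 to 126 ± 3.66 CPM. Plg (plasminogen), the most abundant gene of this list, was at 413 ± 18.2 and 434 ± 28.1 CPM (edgeR adjusted p = 0.165).

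Of 12 tested genes for other inhibitors and clearance receptors, 4 were higher and 6 lower (median -0.22). Over all genes tested 30.2% were higher and 31.2% lower. Vldlr, a lipoprotein receptor gene, rose from 39.8 ± 3.25 to 121 ± 10.5 CPM (log2 fold change 1.60, SE 0.0585, edgeR adjusted p = 8.04e-15), and Serpine2 (protease nexin) fell from 33.3 ± 1.22 to 3.90 ± 0.484 CPM. Pzp, which encodes a liver protein of the α2-macroglobulin family that traps proteases, fell from 2690 ± 162 to 2330 ± 149 CPM. Cell surface partners were higher in 7 of 15 cases and lower in 5 (median 0.09). Bsg, which encodes the MMP inducer basigin (EMMPRIN), rose from 623 ± 54.5 to 1180 ± 71.9 CPM.

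Matrix substrates split, with 14 of 28 tested genes higher and 9 lower (median 0.16), beside 30.2% and 31.2% of all genes tested. The basement membrane collagen genes Col4a1 and Col4a2 fell from 253 ± 7.90 to 128 ± 3.51 CPM and from 164 ± 12.9 to 69.1 ± 3.86 CPM, and Tnc (tenascin C) fell from 42.2 ± 6.19 to 10.7 ± 1.45 CPM. Dcn (decorin), which is also in the stellate cell list, rose from 3.46 ± 0.527 to 26.4 ± 0.650 CPM, and the collagen gene Col6a2 rose from 0.168 ± 0.0863 to 4.79 ± 0.675 CPM. Col6a2 had 3, 6, 3 and 2 counts in the wild-type libraries and passed the low-count filter only through the knockout libraries. The count of calls among matrix substrates is therefore given as a description.

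Cytokines that induce Mmp genes and their receptors were higher in 8 of 17 tested cases and lower in 6 (median 0.07). Over all genes tested 30.2% were higher and 31.2% lower. The cytokine genes Il1b, Tnf, Il6 and Osm, with at most 1 count in any library, were too low to be tested. Tgfb3 rose from 0.465 ± 0.137 to 4.00 ± 0.477 CPM and Il1r1, the interleukin 1 receptor gene, fell from 23.2 ± 0.992 to 13.3 ± 1.09 CPM. With 8, 8, 9 and 14 counts in the wild-type libraries, Tgfb3 passed the low-count filter only through the knockout libraries. Of 21 tested transcription factor genes known from Mmp and Timp promoters 16 were higher and 3 lower (median 0.28). The AP-1 subunit genes Fos and Junb rose from 6.21 ± 0.499 to 27.7 ± 2.09 CPM and from 90.3 ± 3.84 to 168 ± 1.10 CPM, and Hif1a fell from 287 ± 14.3 to 137 ± 12.1 CPM. The promoter stretches of Mmp12, which rose, and of Mmp13, which had 0 counts, both hold the AP-1 letters TGANTCA. The windows of Mmp8, which also rose, and of Timp1, which fell, do not hold these exact letters. Whether AP-1 had a part in any of these levels was not tested.

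**Figure D5:**
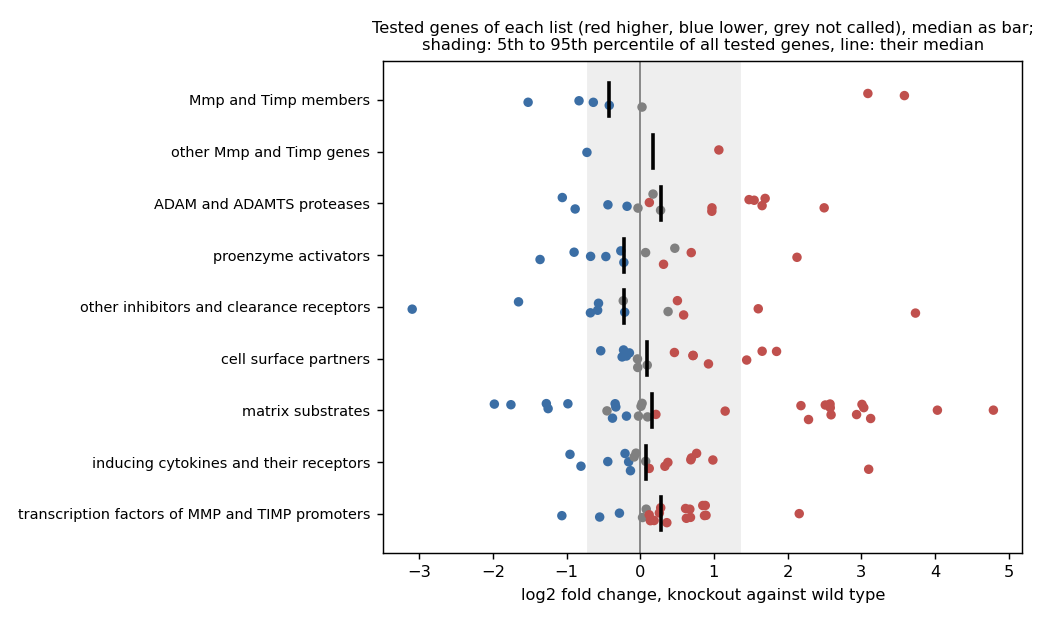
Log2 fold change of knockout against wild type (x axis) for each tested gene of the members and of 8 related lists (rows), with the list's median as a black bar and the 5th to 95th percentile of all tested genes shaded. Mmp12 and Mmp8, which passed the low-count filter only through the knockout libraries, lie to the right of the shading. The other lists hold genes on both sides of 0, and the transcription factor list has 16 of 21 genes called higher. Some genes of the other lists, such as Col6a2, also passed the filter only through the knockout libraries.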

How the data were processed

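Per the submitters' processing notes, the authors used RSEM and build mm10. The deposited values are expected counts per gene, which the authors did not scale between libraries. The version, the aligner, the annotation and the use of strand are not stated in the sources used. Only the 8 columns that match the library names in the labels were used, and 8 further columns match no sample. Values of the 10 members were whole in every library.

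Counts were rounded, filtered with filterByExpr (minimum count 10, minimum total 15) and compared with edgeR 4.0.16 in R 4.3.3 (TMM scaling, quasi-likelihood test, knockout against wild type, Benjamini-Hochberg adjustment over the 12122 genes tested, threshold 0.05). The SE of a log2 fold change is its size over the square root of F. Library totals ran from 18947059 to 23933589. Exon lengths and coordinates came from GENCODE on the same build. Within genotypes, library pairs differed beyond counting noise (chi-square per degree of freedom 3.18 to 8.62) and were counted separately.

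The members, gene lists and alternatives were chosen with earlier results of these data known. The text names the members and, from each list, a few of the called genes of smallest adjusted p, higher and lower, or the most abundant gene. A gene so taken is not reported here. Alternatives were other scalings, DESeq2 1.42.0, limma-voom (limma 3.58.1), other filters, a replicate block, thinning to the smallest total and leaving out each library.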

Additional observations from a re-analysis of the deposited data

How the results depend on the processing

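The calls of Mmp8, Mmp12, Mmp14, Mmp15, Timp1, Timp3 and Taf2 kept their direction and passed the threshold in every alternative in which they were tested, with adjusted p-values up to 2.58e-05 for Timp1 and 0.000239 for Timp3. With a minimum count of 50, Mmp8, Mmp12, Timp1 and Timp2 were not tested, which left 0 members higher and 3 lower, and without a low-count filter Mmp2 was called too, so that 3 members were higher. The log2 fold change of Timp2 was -0.003 with library totals only, and between -0.157 and 0.183 when 1 library was left out, never passing the threshold (adjusted p 0.654 to 0.994). By the longest listed transcript the wild-type levels per kb were 37.3 for Mmp14, 4.28 for Timp3 and 0.0509 for Mmp12. Over all alternatives 3319 to 4023 genes were called higher and 3280 to 4187 lower. Same-numbered libraries did not deviate together (correlations -0.0686 to 0.0114), and with a replicate block 3666 genes were higher and 3771 lower, with 2 members higher and 4 lower as before. Depth limits Mmp2, Mmp9, Mmp13 and Timp2, each with fewer than 20 counts in every library.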

Other observations

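Proteases of the related ADAM and ADAMTS families share the zinc site of MMPs, and several are blocked by TIMP3. Their genes were higher in 8 of 15 tested cases and lower in 4, beside 30.2% and 31.2% of all genes tested. The median log2 fold change was 0.28, beside -0.003 over all genes tested. The other 15 of the 30 listed genes were not tested. Adamts2, with 3, 2, 3 and 6 wild-type counts, and Adamts12, with 6, 4, 5 and 5, passed the low-count filter only through the knockout libraries. The count of calls in this list is therefore a description. Adamts1, an aggrecan-cleaving protease gene, rose from 37.8 ± 0.694 to 74.1 ± 4.23 CPM (log2 fold change 0.97, SE 0.0433, edgeR adjusted p = 1.53e-13), and Adamts4 rose from 1.11 ± 0.136 to 3.59 ± 0.435 CPM. The sheddase genes Adam8 and Adam12 fell from 14.6 ± 0.673 to 7.03 ± 0.668 CPM and from 21.4 ± 1.11 to 11.6 ± 1.81 CPM. Adam9, the most abundant of the list, fell from 222 ± 11.8 to 196 ± 8.73 CPM (log2 fold change -0.18, SE 0.0423, edgeR adjusted p = 0.00107).

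Among Mmp genes too low for the fit, the genotypes did not overlap for Mmp17 and Mmp11, both singled out after their values were seen. Mmp17, which encodes a membrane-type protease held by a lipid anchor, had 2, 0, 0 and 0 counts in the wild-type libraries and 4, 4, 5 and 4 in the knockout libraries (ratio of totals 8.14, exact 95% interval 1.93 to 72.6, counting error only). Mmp11, the stromelysin 3 gene, had 6, 4, 4 and 6 counts in the wild type and 2, 3, 2 and 2 in the knockout (ratio 0.431, interval 0.173 to 0.990).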
